A study of Mus musculus with 14 samples.

Results

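Macrophage genes were followed in subcutaneous white adipose tissue of running and sedentary mice. The set holds 34 genes, named by symbol, that mark macrophages or serve their main functions in fat. All 34 were found among the 18193 genes that the microarray names by a single symbol, and each was read from its probe set with the highest mean over the 14 arrays. Donors in both groups were C57BL/6 males 12 weeks old. The exercised group (7 arrays) had been housed with a wheel for 11 days, and the sedentary group (7 arrays), labelled with the same 11 days, served as controls. No genetic change or drug is named for either group. The labels do not tell whether arrays stand for single mice or pools, so the p-values reflect the scatter among these arrays, part of which may be technical.

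Adipose tissue macrophages clear dying adipocytes, take up lipid and sense microbes and antibodies through surface receptors. Resident macrophages lie along vessels and between adipocytes and carry scavenger and endocytic receptors. In obesity a second population, called lipid-associated macrophages, gathers around dying adipocytes and expresses lysosomal and lipid-handling genes under the receptor encoded by Trem2. Whole tissue was measured here, so fewer macrophages and less messenger RNA in each macrophage cannot be told apart.

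Signals are linear microarray units that share a trimmed mean of 1500 on every array, and the number of arrays limits their precision. Array medians lay between 531.3 and 617.4. Differences are exercised minus sedentary on the scale log2(signal + 46.7), where -1 is a halving of signal plus 46.7. A probe set needed a mean signal of at least 389.7 to enter the test, which was passed by 12945 genes and by 33 of the 34 macrophage genes. Trem2, with a mean of 283.6, did not enter it. Genes were called at an adjusted p under 0.05 by limma. Adipocyte markers were strong on all arrays, with mean log2 levels of 13.74 to 15.04 for the 10 tested. The ratio of the 3' to the 5' Gapdh control probe set, a sign of RNA integrity, was 0.69 to 0.80 in sedentary and 0.71 to 0.79 in exercised samples.

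Macrophage genes stood mostly slightly lower in exercised tissue, but a single one passed the test. Tyrobp fell, which is 1 of 33 (3.03%), where 1.53% of all genes tested were called lower and 5.53% in either direction. By limma 0 macrophage genes were called higher, where 4.0% of all genes were. At an unadjusted p under 0.05, 0 were higher, where 11.3% of all genes were. Negative differences were measured for 32 of the 33 (97.0%), against 55.0% of all genes, with a median of -0.35 against -0.03. At an unadjusted p under 0.05, 10 of the 33 were lower (30.3%, against 10.5% of all genes). These genes are transcribed largely in the same cells, so their counts are not independent observations. In all 33 the exercised and sedentary values overlapped. Of all genes tested, 0.734% had every exercised value below every sedentary one, too few for overlap to mark out a set of 33.

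Sedentary replicate 5 stood apart. Of the 33 genes, 22 (66.7%) had their highest signal of all 14 arrays there, against 23.1% of all genes. Without that array 30 of the 33 differences were negative (57.0% of all genes), and the median was -0.23 against -0.03. Tyrobp remained the 1 gene called lower, where 1.71% of all genes were (5.55% in either direction), 0 were called higher by limma (3.84% of all genes), and 5 of 33 were lower at an unadjusted p under 0.05 (15.2%, against 10.2% of all genes). In 16 of the 33 the difference was over 1.5 times smaller without it, including Clec7a and Lyve1, whose sign turned. On the same array the 9 markers of monocytes and neutrophils had a mean log2 level of 12.73, where the other 6 sedentary arrays had 10.44 ± 0.58 (SD) and the exercised ones 10.01 ± 0.34 (n = 7). The 17 B and T lymphocyte markers were also highest of all 14 arrays there, at 12.56 against at most 12.11 on the other sedentary arrays. So, by little, were the 9 dendritic cell markers, at 10.87 against at most 10.82. The 10 adipocyte markers were lowest on sedentary replicate 5, at 13.74 against 14.43 to 15.01 on the other sedentary arrays. The part of these other cell types in the macrophage differences was not tested.

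**Figure D1:**
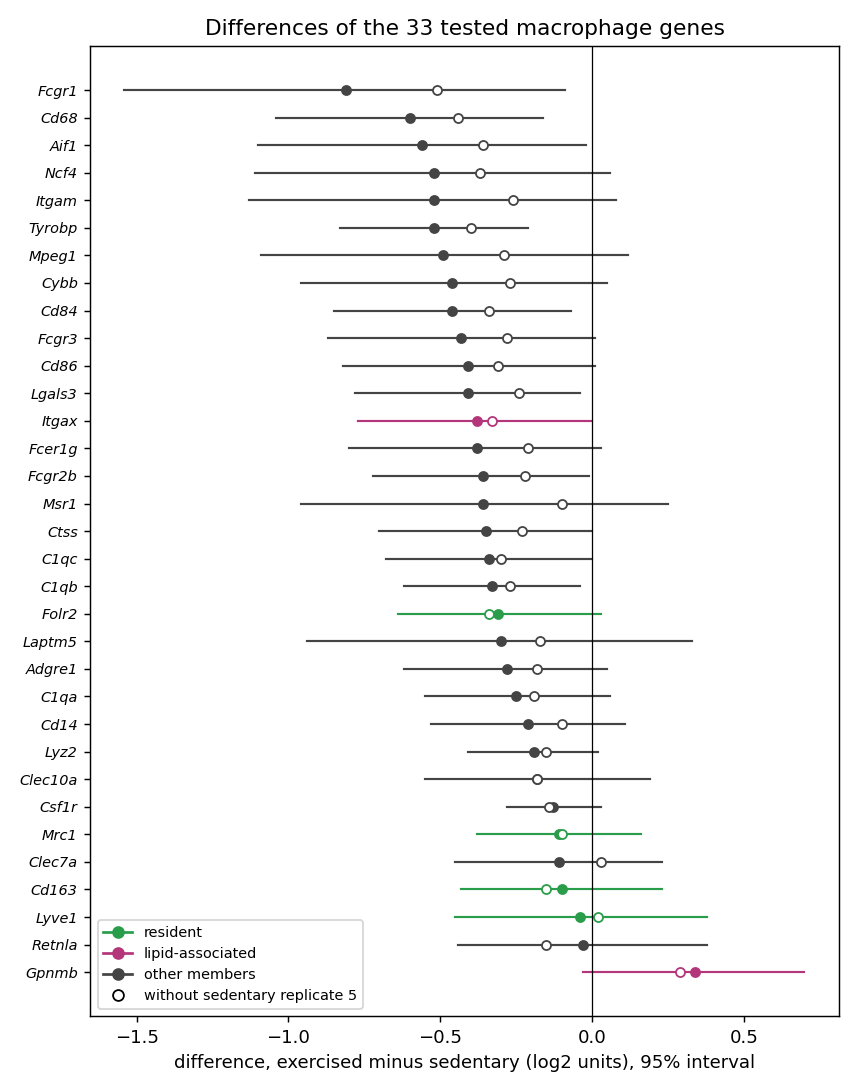
Difference in log2 units (x axis) for each of the 33 tested macrophage genes (y axis). Filled points use all 14 arrays and lines are 95% intervals, while open points leave out sedentary replicate 5. Gpnmb lies alone to the right of 0 among the filled points, and for 28 genes the open point is nearer to 0.

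Promoter sequence was available from RefSeq (GRCm38.p6) for 24 of the 34 genes. Its relation to the differences was not tested. The letters GAGGAAG lie within the site of PU.1, the factor that macrophage development depends on. They occurred on either strand within the 250 bases before the start site in 8 of the 24 genes (33.3%), against 12.0% of 27025 genes. The longer GAGGAAGT, which contains these letters, occurred in 2 of 24 (8.33%, against 2.79%). CACGTG, the letters of an E-box, occurred in 0 of 24, against 6.86%. A match describes the letters in this window and is not a bound site. The 8 stretches follow on the strand of each gene, with the match in capitals (CTTCCTC where it lies on the other strand).
Fcgr1 (chr3:96293999-96294045, minus strand): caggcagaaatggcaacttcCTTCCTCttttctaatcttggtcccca
Fcgr3 (chr1:171059395-171059430, minus strand): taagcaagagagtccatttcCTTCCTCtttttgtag
Itgam (chr7:128062536-128062582, plus strand): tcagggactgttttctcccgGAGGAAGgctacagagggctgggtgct
Laptm5 (chr4:130913257-130913303, plus strand): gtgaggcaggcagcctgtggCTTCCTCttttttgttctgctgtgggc
C1qc (chr4:136893082-136893128, minus strand): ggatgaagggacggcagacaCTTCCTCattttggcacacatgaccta
Mrc1 (chr2:14229226-14229272, plus strand): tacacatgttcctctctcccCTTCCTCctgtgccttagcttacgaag
Trem2 (chr17:48346340-48346386, plus strand): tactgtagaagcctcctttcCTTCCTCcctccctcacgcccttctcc
Retnla (chr16:48842392-48842438, plus strand): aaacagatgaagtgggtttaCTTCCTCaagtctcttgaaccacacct
In Fcgr1 and Fcgr3 the match begins 56 and 16 bases before the start site. The 8 genes include the widest difference of the set (Fcgr1, -0.81) and some of the narrowest (Retnla, -0.03, and Mrc1, -0.11).

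Genes that identify macrophages were led by Cd68, which encodes a glycoprotein of the endosome and lysosome. Its sedentary signals were 5336, 3623, 3756, 8364, 10675, 4676 and 4249 in replicates 1 to 7, and its exercised signals 3800, 3658, 3177, 3671, 3209, 3346 and 3890. The exercised values formed a narrow band, all below the sedentary median, while sedentary replicates 4 and 5 were far above it. The difference was -0.60 (SE 0.21, 95% interval -1.04 to -0.16, adjusted p = 0.107), and -0.44 (SE 0.16, adjusted p = 0.128) without sedentary replicate 5. Adgre1, the adhesion receptor detected by the antibody F4/80, had a mean signal of 5177 ± 1554 in the sedentary and 4132 ± 570 in the exercised group (SD, n = 7 each), a difference of -0.28 (SE 0.16, adjusted p = 0.308). Itgam, the alpha chain of the integrin CD11b, had 7 exercised signals between 482 and 817, and 6 of the sedentary ones lay between 619 and 1345. Its value on sedentary replicate 5 was 2856, which is 4.22 times the median of the other sedentary arrays. The difference of Itgam thus went from -0.52 (SE 0.28) to -0.26 (SE 0.17) without that array. Aif1, a calcium-binding protein of macrophages, differed by -0.56 (SE 0.25, adjusted p = 0.213) and by -0.36 without it.

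Csf1r behaved otherwise. It encodes the receptor for the growth factors on which macrophages depend. Its signals varied little, from 19143 to 23804 in sedentary and from 17584 to 22443 in exercised tissue. Sedentary replicate 5, at 19679, was below its group's median. The difference was -0.13 (SE 0.07, 95% interval -0.28 to 0.03, adjusted p = 0.347), and 2 other probe sets of the gene gave -0.17 and -0.16.

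Fc receptors bind antibody, and the activating ones signal through small adaptor proteins. Tyrobp encodes a related adaptor, DAP12, which carries the signal of Trem2. Its signals were 10426, 9728, 7653, 11276, 16903, 8549 and 8112 in sedentary replicates 1 to 7, and 7079, 7860, 6311, 7331, 5941, 6742 and 7738 in exercised ones. All 7 exercised values were below the sedentary median, and the groups overlapped through sedentary replicate 3, which lay below exercised replicates 2 and 7. The fall was -0.52 (SE 0.15, adjusted p = 0.0482), and -0.40 (SE 0.10, adjusted p = 0.0292) without sedentary replicate 5. The call was made in 9 of 29 alternative analyses (adjusted p 0.0232 to 0.237). It was kept when sedentary replicate 3, 5 or 7 was left out and lost when any 1 of the other 11 arrays was, and it was lost with array medians as the scale.

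**Figure D2:**
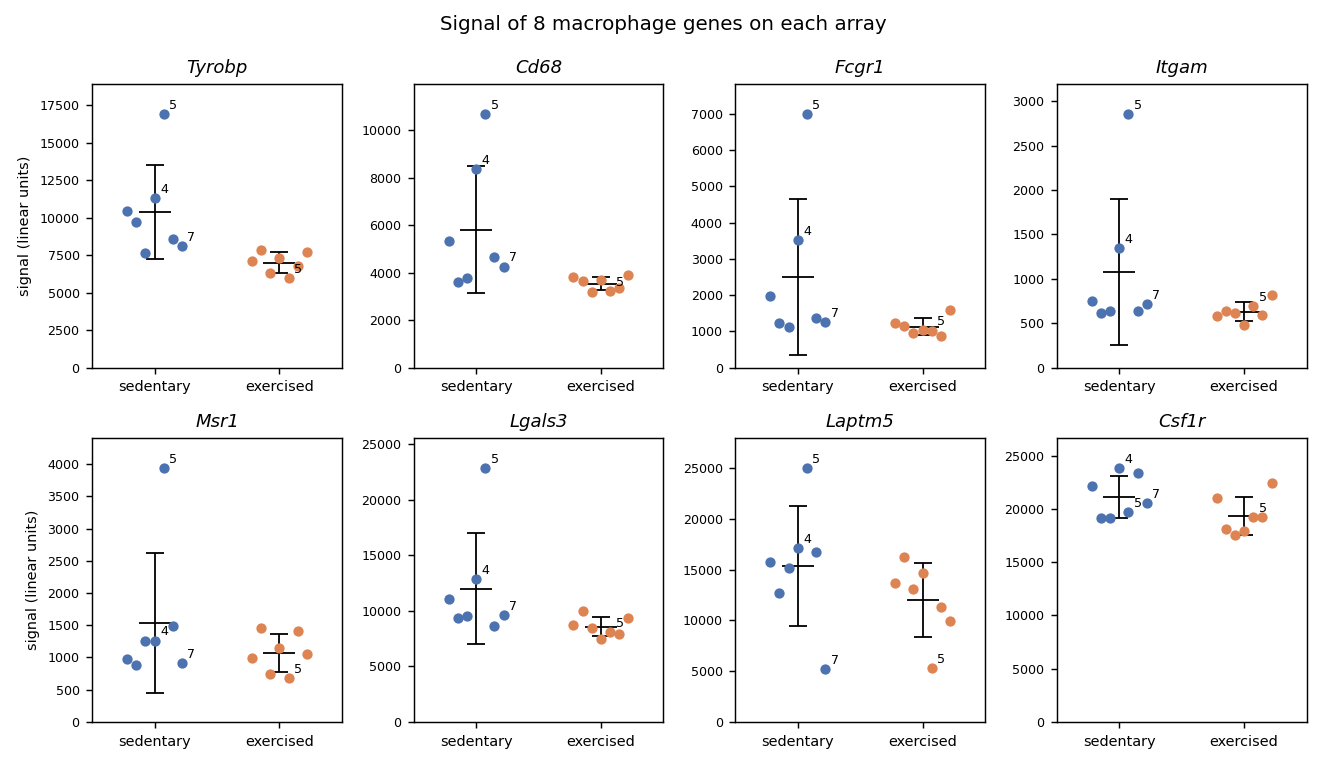
Signal in linear units (y axis) of 8 macrophage genes on each sedentary (blue) and exercised (orange) array, with the group mean and SD in black (n = 7). Numbers mark sedentary replicates 4, 5 and 7 and exercised replicate 5; in Fcgr1, Itgam and Msr1 sedentary replicate 5 is far above every other array, and in Csf1r it is not.

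Fcer1g, the gamma chain shared by activating Fc receptors, had signals of 6410 to 18318 in sedentary and 5906 to 8823 in exercised tissue and differed by -0.38 (SE 0.19, adjusted p = 0.262). Fcgr1, the high-affinity receptor for immunoglobulin G, showed the widest difference of the set, -0.81 (SE 0.34, 95% interval -1.54 to -0.09, adjusted p = 0.177). Sedentary signals of Fcgr1 were 1982, 1229, 1120, 3505, 6990, 1358 and 1256, and exercised ones 1242, 1137, 947, 1041, 1015, 883 and 1582. Replicate 5 was thus 5.35 times the median of the other sedentary arrays and replicate 4 was also high, while 4 of the other 5 sedentary arrays lay within the exercised range and replicate 1 lay above it. Without replicate 5 the difference of Fcgr1 was -0.51 (SE 0.23, adjusted p = 0.222). Its second probe set differed by -0.39. Fcgr3, a low-affinity activating receptor, differed by -0.43 (SE 0.21, adjusted p = 0.236), and Fcgr2b, the inhibitory receptor, by -0.36 (SE 0.17, adjusted p = 0.215), with all 7 exercised values below the sedentary median in Fcgr2b and 6 of 7 in Fcgr3.

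Of the 4 receptors for microbes and debris 0 were called by limma (5.53% of all genes were), and 0 were at an unadjusted p under 0.05. At that threshold 10.5% of all genes were lower and 11.3% higher, so 0 of 4 says little about these receptors. Msr1 is a scavenger receptor for modified lipoproteins. Its exercised signals were 680 to 1454, its sedentary ones 884 to 1495 on 6 arrays and 3935 on replicate 5. The difference of -0.36 (SE 0.28, adjusted p = 0.488) became -0.10 (SE 0.18) without that array. Cd14, the co-receptor for bacterial lipopolysaccharide, gave -0.21 (SE 0.15, adjusted p = 0.434). Clec7a, the receptor for fungal beta-glucans also called Dectin-1, had 2 exercised values below the sedentary median and differed by -0.11 (SE 0.16, 95% interval -0.45 to 0.23), and by 0.03 without sedentary replicate 5. Clec10a, a galactose-binding lectin found on macrophages and dendritic cells, gave -0.18 with and without that array (SE 0.17 with it, adjusted p = 0.566).

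C1qa, C1qb and C1qc encode the chains of C1q, the first component of the classical complement pathway, which in tissues is made largely by macrophages. Signals of C1qb were 22322, 18342, 14002, 25849, 25115, 16926 and 17530 in sedentary replicates 1 to 7, and 16874, 14570, 13455, 12883, 16259, 15902 and 19842 in exercised ones. Sedentary replicate 4 was highest for all 3 chains. Differences were -0.25 (SE 0.14) for C1qa, -0.33 (SE 0.14) for C1qb and -0.34 (SE 0.16) for C1qc, with adjusted p of 0.325, 0.170 and 0.220. Without sedentary replicate 5 they were -0.19, -0.27 and -0.30.

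Genes of the lysosome and of killing included Lyz2, the macrophage lysozyme, with signals of 43426 ± 5823 in sedentary and 37898 ± 4615 in exercised tissue (n = 7 each). It differed by -0.19 (SE 0.10, adjusted p = 0.263), with all 7 exercised values below the sedentary median. Ctss, the protease cathepsin S, gave -0.35 (SE 0.16, adjusted p = 0.227) and Mpeg1, a pore-forming protein, -0.49 (SE 0.28, adjusted p = 0.336). Cybb and Ncf4, a membrane and a cytosolic subunit of the phagocyte oxidase, gave -0.46 (SE 0.24) and -0.52 (SE 0.28), with adjusted p of 0.278 and 0.282. Cd84, an adhesion receptor of the SLAM family, differed by -0.46 (SE 0.18, adjusted p = 0.161), and Cd86, a co-stimulatory ligand for T cells, by -0.41 (SE 0.19, adjusted p = 0.235).

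Some of these genes are also expressed by lymphocytes or other leukocytes. Some had their lowest signal on an array with few lymphocyte transcripts. The 17 markers of B and T lymphocytes tested had mean log2 levels of 8.89 on sedentary replicate 7, 8.71 on exercised replicate 5 and 9.68 on exercised replicate 7, and 11.16 to 12.56 on the other 11 arrays. Laptm5, a lysosomal membrane protein of blood cells at large, had signals of 5161 on sedentary replicate 7 and 5268 on exercised replicate 5, where the other 12 arrays had 9954 to 24968. Ncf4 had 1400, 1234 and 1348 on the 3 lymphocyte-poor arrays and 1562 to 5548 elsewhere. Other genes were not low on all of these arrays. On exercised replicate 7 Mpeg1 had 6829 and Lyz2 43568, its highest exercised signal. Exercised replicate 5 was the lowest of all 14 arrays in 10 of the 33 genes (30.3%, against 14% of all genes, 1816 of 12945). With the lymphocyte markers as a covariate the difference of Laptm5 was -0.01, down from -0.30 (SE 0.30), that of Ncf4 was -0.27 and that of Mpeg1 -0.27. C1qb (-0.34) and Cd163 (-0.15) had no smaller differences with that covariate than without it, and Tyrobp had -0.46 (adjusted p = 0.0662). The median over the set with that covariate was -0.27. Whether lymphocyte content accounts for these low values was not tested.

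**Figure D3:**
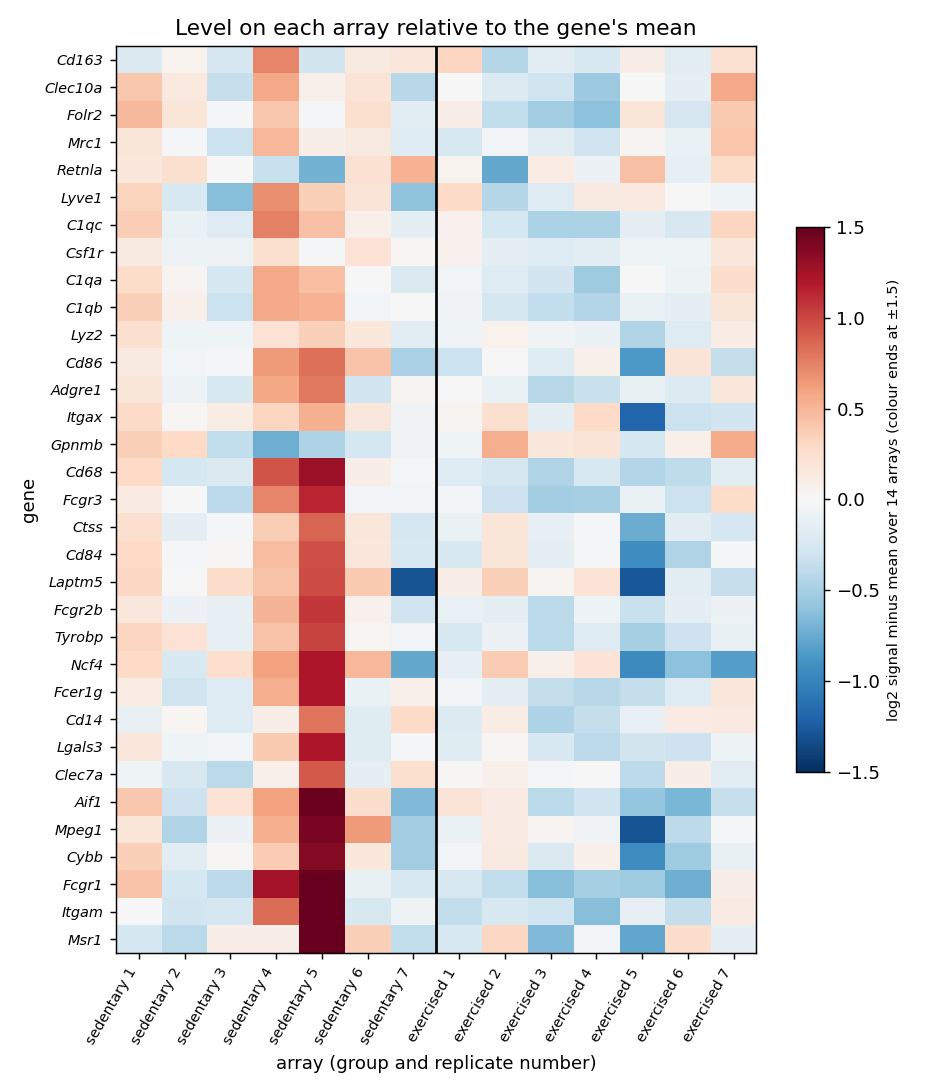
Log2 signal of each of the 33 tested genes (rows) on each array (columns), relative to the gene's mean over the 14 arrays (red higher, blue lower). Rows run from genes that were higher on sedentary replicate 4 than on replicate 5, at the top, to those higher on replicate 5; Laptm5, Mpeg1 and Ncf4 are blue on exercised replicate 5.

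The resident genes were compared with the lipid-associated ones. All 4 resident genes had negative differences that did not pass the test. Mrc1, the mannose receptor, had signals of 15121, 13144, 10698, 18883, 14241, 14701 and 11706 in sedentary replicates and 11339, 13006, 11940, 10849, 13738, 12494 and 17789 in exercised ones. The groups of Mrc1 covered nearly the same range, and its difference was -0.11 (SE 0.13, 95% interval -0.38 to 0.16). Cd163, the scavenger receptor for haemoglobin, ran from 5616 to 11335 in sedentary and from 5062 to 8532 in exercised tissue and differed by -0.10 (SE 0.16, 95% interval -0.43 to 0.23). Lyve1, a hyaluronan receptor that lymphatic endothelium expresses too, ran from 5970 to 15112 and from 6921 to 11329 and differed by -0.04 (SE 0.19, 95% interval -0.45 to 0.38), with a second probe set at 0.06. Its sign also turned to 0.0024 when arrays were centred on their medians. Folr2, a folate receptor, showed the widest difference of the 4.

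Signals of Folr2 were 8987, 7229, 6265, 8439, 6279, 7561 and 5710 in sedentary and 6855, 4966, 4450, 4193, 7253, 5358 and 8404 in exercised tissue. In Folr2, 4 exercised arrays lay below every sedentary one, and exercised replicate 7 lay near the top of the sedentary range. The difference was -0.31 (SE 0.16, 95% interval -0.64 to 0.03, adjusted p = 0.266). On sedentary replicate 5 the resident genes were not raised as the Fc receptor genes were. Relative to the median of the other sedentary arrays, that array had 1.02 times the signal of Mrc1, 0.77 of Cd163, 0.85 of Folr2 and 1.29 of Lyve1. This was not particular to the resident genes. By the same measure the lipid-associated genes Gpnmb, Trem2 and Itgax had 0.81, 1.18 and 1.32, and Clec10a had 0.94. Sedentary replicate 4 was the highest of all 14 arrays for 8 genes (24.2%, against 7.49% of all genes), namely Mrc1, Cd163, Lyve1, Csf1r, Clec10a and the 3 C1q chains.

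The 3 lipid-associated genes did not move together. Gpnmb, a glycoprotein of the late endosome and lysosome, was the one tested gene of the set with a positive difference. Its signals were 3036, 2918, 1834, 1424, 1724, 1978 and 2277 in sedentary and 2262, 3458, 2646, 2698, 1977, 2503 and 3483 in exercised tissue. In Gpnmb, 6 of the 7 exercised values were above the sedentary median, yet sedentary replicates 1 and 2 exceeded 5 of the exercised ones. The difference was 0.34 (SE 0.17, 95% interval -0.03 to 0.70, adjusted p = 0.263), and 0.29 without sedentary replicate 5. A weaker probe set of Gpnmb, with a mean signal of 186.3, differed by 0.00 (95% interval -0.45 to 0.46). Itgax, the alpha chain of the integrin CD11c, ran from 1726 to 2592 in sedentary and from 786 to 2184 in exercised tissue. It differed by -0.38 (SE 0.18, adjusted p = 0.233), and by -0.24 with the lymphocyte markers as a covariate.

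Trem2 was weak on every array. Its signals were 228, 40, 322, 406, 359, 298 and 312 in sedentary replicates and 112, 73, 30, 467, 407, 368 and 548 in exercised ones. Of the exercised values 1 lay below the sedentary range, 3 within it and 3 above it. Fitted without the filter on low signal, Trem2 differed by -0.18 (SE 0.49, 95% interval -1.22 to 0.86, adjusted p = 0.882). The values are thus compatible with any difference within that interval.

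The mean difference of the 4 resident genes was -0.14, with or without sedentary replicate 5, and that of Gpnmb and Itgax -0.02, with or without it. The resident mean minus the lipid-associated mean was thus -0.11 (-0.06 with Trem2 included), and it went from -0.26 to 0.01 as single arrays were left out, with 0.01 reached without sedentary replicate 4 and -0.26 without exercised replicate 5. It was -0.20 with the lymphocyte covariate and -0.36 without the 3 lymphocyte-poor arrays. A score over chosen genes was not tested. The other 27 genes of the set had a median difference of -0.36, and of -0.24 without sedentary replicate 5.

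**Figure D4:**
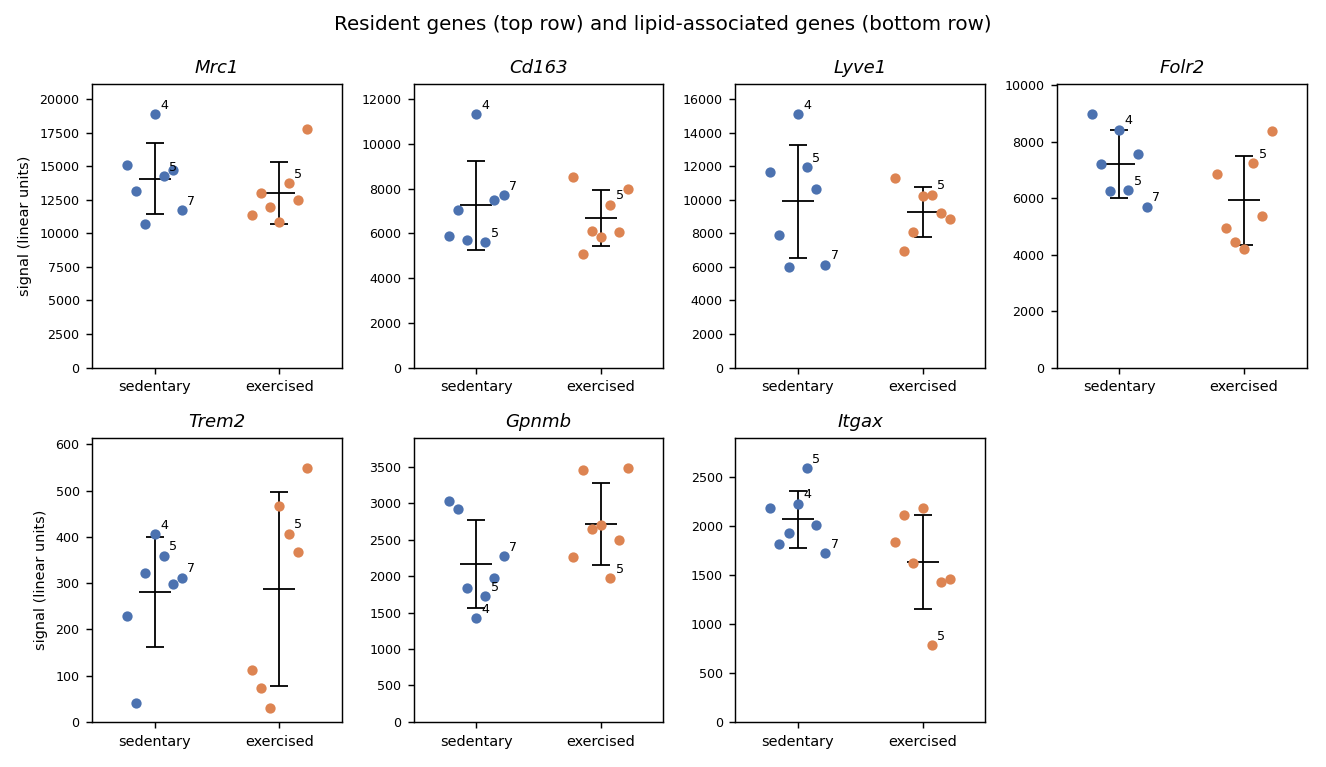
Signal in linear units (y axis) of the resident genes Mrc1, Cd163, Lyve1 and Folr2 and of the lipid-associated genes Trem2, Gpnmb and Itgax on each sedentary (blue) and exercised (orange) array, with the group mean and SD in black (n = 7). Numbers mark sedentary replicates 4, 5 and 7 and exercised replicate 5; sedentary and exercised values overlap in all 7 genes.

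Lgals3 and Retnla, which encode secreted proteins, differed on sedentary replicate 5. Lgals3, the gene of galectin-3, had a signal of 22807 there and 8624 to 12851 on the other sedentary arrays, with 7484 to 9937 in exercised tissue (-0.41, SE 0.17, adjusted p = 0.180). Retnla, a secreted marker of alternatively activated macrophages, was lowest of the sedentary group on that array, at 22953 against 29956 to 54254. Its exercised signals were 22042 to 51205, and the difference was -0.03 (SE 0.19, 95% interval -0.44 to 0.38), or 0.0063 when arrays were centred on their medians. Of the 23 further probe sets of the set's genes, 22 had the sign of the one used, with Lyve1 the exception.

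Genes around the set were read from lists chosen for their role. Over all genes tested, 1.53% were called lower and 4.0% higher, and 10.5% were lower and 11.3% higher at an unadjusted p under 0.05. Of 13 growth factors, chemokines and receptors tested that draw or sustain macrophages, 0 were called by limma in either direction, and 7 were lower at an unadjusted p under 0.05 (median -0.36). Among these, Cx3cr1, the fractalkine receptor of monocytes and macrophages, differed by -0.35 (SE 0.13, adjusted p = 0.140) and Ccr1 by -0.69 (SE 0.27, adjusted p = 0.147). Without sedentary replicate 5, where Ccr1 had a signal of 4574, they were at -0.35 and -0.43. Il34, a ligand of the receptor that Csf1r encodes, differed by -0.33 (SE 0.18, adjusted p = 0.278), and by -0.48 (SE 0.13, adjusted p = 0.0402) without sedentary replicate 5; it was picked after its values were seen. Of 12 genes of classical, inflammatory activation 1 was called, the cytokine Tnf, which fell (-1.36, SE 0.35, adjusted p = 0.0358), and was at -1.15 (adjusted p = 0.0504) without that array. The median of this list went from -0.44 to -0.08 without it. Of 13 genes of alternative activation 0 were called and 2 were lower at an unadjusted p under 0.05 (median -0.31, and -0.13 without that array), with Ccl17, a chemokine, at -0.43 (SE 0.12, adjusted p = 0.0501) and Socs2, a suppressor of cytokine signalling, at -0.31 (SE 0.14, adjusted p = 0.212).

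Of 16 further genes of resident macrophages 0 were called and 3 were lower at an unadjusted p under 0.05 (median -0.11). Pf4, a chemokine also abundant in platelets, differed by -0.38 (SE 0.12, adjusted p = 0.0822), and Cd209d, a lectin, by -0.47 (SE 0.18, adjusted p = 0.134). Of 14 further lipid-associated genes 1 rose and 0 fell by limma (median -0.01), and at an unadjusted p under 0.05 there were 2 higher and 1 lower. The gene that rose was Fabp5, a fatty acid binding protein that adipocytes express too, from 33956 ± 3225 to 47549 ± 4357 (0.49, SE 0.08, adjusted p = 0.00285). Of 8 partners of the phagocyte oxidase and of integrin signalling 0 were called, with Cyba, the membrane partner of Cybb, at -0.62 (SE 0.19, adjusted p = 0.0667) and Fgr, a kinase, at -0.56 (SE 0.18, adjusted p = 0.0825). There 2 genes were lower at an unadjusted p under 0.05. Of 11 myeloid transcription factors 0 were called by limma, while 4 stood higher and 0 lower by the unadjusted threshold (median 0.07). Cebpa, which adipocytes use as well, differed by 0.43 (SE 0.15, adjusted p = 0.108), and Nr1h3, the nuclear receptor LXR-alpha, by 0.23 (SE 0.09, adjusted p = 0.138). Without sedentary replicate 5 they were at 0.30 and 0.20.

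The 15 skeletal muscle markers, of which 0 were called by limma and 11 were higher at an unadjusted p under 0.05 (11.3% of all genes were), had mean log2 levels of 8.16 to 13.14 in sedentary and 8.50 to 15.27 in exercised samples. With their mean as a covariate the median difference of the macrophage set was -0.32 and that of Tyrobp -0.46 (SE 0.17, adjusted p = 0.237). Exercised replicates 1, 4 and 5 had muscle levels of 8.90, 8.50 and 12.29, within the sedentary range. Their mean levels over the 33 macrophage genes were 12.46, 12.33 and 12.14. Exercised replicate 5 was the lowest of all 14 arrays in that mean and also in the lymphocyte markers (8.71). In the macrophage mean the sedentary arrays ranged from 12.33 to 13.29, and the exercised ones from 12.14 to 12.55. Exercised replicate 1 thus lay within the sedentary range and replicate 4 at its lower end. The cause of these levels was not tested.

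**Figure D5:**
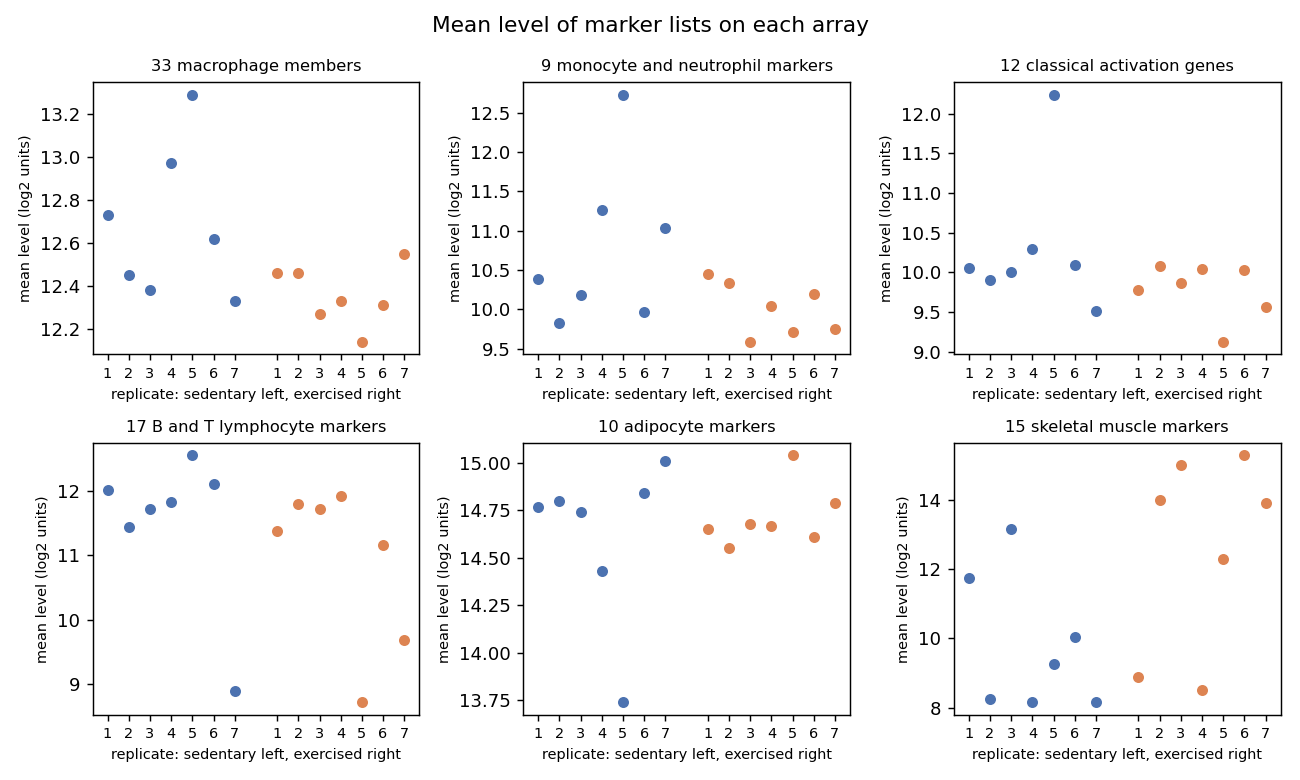
Mean log2 level (y axis) of the 33 macrophage genes and of 5 marker lists on each array (x axis: replicate number, sedentary in blue on the left, exercised in orange on the right). Sedentary replicate 5 is highest for macrophage, monocyte and neutrophil, classical activation and lymphocyte genes and lowest for adipocyte markers. For lymphocyte markers 3 arrays are low.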

How the data were processed

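RNA of 14 tissue samples was made into biotin-labelled cRNA by Affymetrix's procedure, as the labels state. The authors deposited linear intensity for 45101 probe sets; the submitters' processing notes name MAS5, with its version not given in the sources used here. Groups and replicate numbers came from the titles. Values were transformed as log2(signal + 46.7), the 10th percentile of all values. Probe sets with means under the 40th percentile (389.7) and 64 control probe sets were left out. Platform symbols, with 1 symbol for 34945 probe sets, several for 932 and none for 9160 in the table used, were updated by Entrez identifier (34741 matched) to the names of assembly GRCm38.p6, and probe sets with several or no symbols were not used. One probe set per gene, the one with the highest mean, entered limma 3.58.1 in R 4.3.3 (lmFit, eBayes with variance trended on level, two-sided, Benjamini-Hochberg over all genes). Limma's standard errors and intervals are given.

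The 34 genes and all lists were chosen with earlier results of these data known. Named besides the 34 were, by rule, members of each related list past the threshold (up to 4) or else the 2 with the smallest p, and the gene with the widest difference of each marker list. Code was checked on simulated data for this comparison with 200 of 12945 genes changed. It recovered 40% of changes of 0.5 log2 units and 87% of those of 1, and 2.3% of calls were false. The simulated noise was independent between genes, without the shifts shared by many genes on single arrays seen here. These rates therefore need not hold for the real arrays. Alternatives were other normalisations, pseudocounts, filters, probe set rules and variance models, a replicate block, marker covariates and leaving out arrays.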

Additional observations from a re-analysis of the deposited data

Results flagged for a closer look

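In each of the 68 groups formed by 34 genes and 2 conditions, a single array was sought whose gap to its nearest neighbour was, relative to the group's range on the log2 scale, above Dixon's 95% critical value for 7 samples. Chance gives such an array in about 1 of 20 groups, and 6 were found. Msr1 and Lgals3 had their highest sedentary level on replicate 5, at 11.96 (other sedentary arrays 9.86 to 10.59) and 14.48 (13.08 to 13.65). Itgax and Mpeg1 had their lowest exercised level on replicate 5, at 9.70 (other exercised arrays 10.53 to 11.12) and 11.50 (12.39 to 12.90). Laptm5 was lowest in the sedentary group on replicate 7, at 12.35 (13.64 to 14.61). Trem2 was lowest in the sedentary group on replicate 2, at 6.44 (8.10 to 8.82), where its signal was 40.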

How the results depend on the processing

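Each result was recomputed in 29 alternatives, 2 of which (without sedentary replicates 5 and 7, and without sedentary replicate 7 and exercised replicates 5 and 7) were chosen after seeing the data. Genes called numbered 716, but 161 with the replicate block, 220 with the muscle covariate, 217 without the 3 lymphocyte-poor arrays and 402 to 853 without single arrays. Centring on array medians gave 86 lower and 547 higher calls, where the main scale gave 198 and 518. The 1 macrophage gene called lower (Tyrobp; -0.52, SE 0.16, adjusted p = 0.126 with the block) became 0 with centring on array medians, no filter on low signal, the mean of all probe sets, all probe sets tested, no variance trend, the replicate block, the lymphocyte covariate, the muscle covariate and without the 3 lymphocyte-poor arrays, and 0 to 1 without single arrays. Same-numbered arrays deviated together in some pairs and oppositely in others (correlations -0.425 to 0.381). In 1 of 7 the closest array was its own number. The labels name no pairing, and these correlations cannot exclude one.

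Of the 33 genes tested, 29 kept the sign of their difference in the alternatives run. Cd163 went to 0.06 with the muscle covariate and to -0.16 to 0.02 without single arrays. Clec7a went to 0.11 with array weights, 0.10 and 0.01 in both added alternatives and -0.18 to 0.03 without single arrays. Retnla went to 0.0063 with centring and -0.15 to 0.09 without single arrays. Lyve1 went to 0.0024 with centring, 0.01 with the mean of all probe sets, 0.04 with array weights, 0.03 and 0.13 with the lymphocyte and muscle covariates and -0.14 to 0.08 without single arrays. Outside the set, Pi16 went from 0.55 to -0.03 without sedentary replicates 5 and 7, and Tnnc2 from 3.48 to -0.06 with the muscle covariate, which includes it. The cause was not tested. The median of the set stayed between -0.42 and -0.23 without single arrays. Signal over background limits Trem2.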

Other observations

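Other leukocytes of fat were read from their markers. Over all genes tested, 5.53% were called in either direction (4.0% higher), and 10.5% were lower and 11.3% higher at an unadjusted p under 0.05. Of 9 markers of monocytes and neutrophils tested 0 were called by limma, with 2 lower at an unadjusted p under 0.05 and a median of -0.37 (-0.18 without sedentary replicate 5). S100a8, a calcium-binding protein of neutrophils and monocytes, had a signal of 29899 on sedentary replicate 5, 488 to 7143 on the other sedentary arrays and 271 to 1960 on exercised ones (-1.96, SE 0.73, adjusted p = 0.134). The 17 lymphocyte markers had a median of -0.59 and 0 at an unadjusted p under 0.05, with Ltb, a lymphocyte cytokine, at -1.05 (SE 0.91, adjusted p = 0.527). Of 9 dendritic cell markers 0 were called and 2 were lower at an unadjusted p under 0.05 (median -0.24), with Ccr7, a receptor that guides these cells to lymph nodes, at -0.89 (SE 0.70, adjusted p = 0.484).

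Mast cell and eosinophil markers were the leukocyte list with positive differences throughout (5 of 5 tested, of 10 listed, median 0.12), with 0 called by limma and 0 at an unadjusted p under 0.05. Tpsb2, a mast cell tryptase, gave 0.36 (SE 0.26, adjusted p = 0.450). Of 10 endothelial markers 0 were called and 0 were at an unadjusted p under 0.05 (median -0.18), with Mmrn1 of lymphatic vessels at -0.62 (SE 0.30, adjusted p = 0.235). Mmrn1 had a signal of 5465 on sedentary replicate 7, 1026 to 1660 on the other sedentary arrays and 712 to 1226 on exercised ones. Of 8 markers of adipocyte progenitors 0 were called and 1 was lower at an unadjusted p under 0.05 (median -0.02), with Pi16 at 0.55 (SE 0.39, adjusted p = 0.427). Among 10 adipocyte markers 1 was called, Slc2a4, the insulin-responsive glucose transporter, which rose (0.77, SE 0.21, adjusted p = 0.0468) and was picked after its values were seen. Of 8 genes of brown and beige adipocytes 6 were called higher, with a median of 2.14. Lep, the leptin gene, was at -1.41 (SE 0.48, adjusted p = 0.105) and by -1.86 (SE 0.30, adjusted p = 0.00319) without sedentary replicate 5, where its signal was 1313 against 4997 to 18007 on the other sedentary arrays. Of 15 muscle markers 0 were called, and 11 were higher at an unadjusted p under 0.05 (median 2.93), with Tnnc2 at 3.48 (SE 1.53, adjusted p = 0.199).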
